A study of Mus musculus with 6 samples.

Results

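Enteroendocrine cells are scattered secretory cells of the gut lining that sense nutrients and microbial products in the lumen and release peptide hormones or serotonin from dense-core granules. They arise from crypt progenitors through the transcription factor Neurog3, and in the colon they comprise L cells, which make proglucagon, peptide YY and insulin-like peptide 5, enterochromaffin cells, which make serotonin and tachykinins, and the rarer somatostatin-producing D cells. The granins fill and shape the granules of nearly all these types and serve as general markers of them. Described here are 10 of their genes, the hormone precursors Gcg, Pyy, Insl5, Nts, Cck, Sst and Tac1, the granins Chga and Chgb, and Tph1, the rate-limiting enzyme of serotonin synthesis outside the brain. They were taken by name: every probe set, a small group of short probes read as 1 value, whose platform annotation gave exactly 1 of these symbols was included, which gave 10 of 18193 named genes and 11 of the 45101 probe sets in the table, 2 of them for Tac1 and 1 for each other gene.

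The arrays compared colon epithelium of vil-Cre-Bcl9-/-/Bcl9l-/- mice with that of wild-type mice, all 12 weeks old and on a mixed 129SvEv/C57BL/6/DBA/2 background. The proteins BCL9 and BCL9L join beta-catenin to its co-activating partners in Wnt signalling, and vil-Cre is a Cre recombinase under the villin promoter, active in the intestinal epithelium. Each genotype had 3 arrays, knockout 1, 2 and 3 from pools of 3, 2 and 2 mice and wild type 4, 5 and 6 from pools of 3 mice each, and the comparison asks how healthy colon epithelium changes without both co-activators. Since vil-Cre is named for knockout samples alone, effects of the recombinase and of the deletions cannot be told apart, and the epithelium was shaken off in EDTA without sorting.

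Several features of the whole series bear on the values. Bcl9 differed between genotypes by 0.11 and -0.04 in its 2 probe sets and Bcl9l by 0.22, 0.15 and -0.20 in its 3 (limma adjusted p = 0.991 to 0.997). The sources used here do not say whether these probes lie in the deleted parts, so they do not check the genotypes. Wild type 6 stood apart on the leading principal component (82.5 against -34.4 to 9.54 in the other arrays, 40.2% of the variance). Wild type 6 also had the highest level of B and plasma cell markers, a list median of 7.71 against 4.26 to 4.54 in the other 5 arrays, with the B cell receptor gene Cd79a at 8.71 against 4.71 to 6.06. Wild type 5 stood apart in genes of pancreatic acinar cells, the enzyme-secreting cells of the pancreas, a list added after the values were seen. The median of the 26 probe sets for 17 such genes was 9.41 in wild type 5, 6.04 in wild type 6, 5.28 in knockout 3 and 4.35 to 4.85 in the remaining arrays, and 25 of the 26 were highest in wild type 5, as 19.5% of all probe sets were.

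Epithelial markers were bright in all 6 arrays (list medians of 12.3 to 12.5), among them Epcam, Cdh1 and the villin gene Vil1. The posterior homeobox gene Hoxb13, a gene of the distal gut, read 12.2 to 12.6. The members' brightness was set beside that of 28 probe sets for 21 genes of lens, retina, sperm, enamel, pituitary and hypothalamus. Colon epithelium is not known to use these genes, and their 6-array means had a median of 4.58. Brightness alone cannot show which cells made the RNA. Gcg, Pyy, Insl5, the brighter Tac1 probe set, Chga and Chgb lay above all 28, and Sst and Tph1 above 27 of them. Cck lay above 17, Nts above 12 and the other Tac1 probe set above 8, so these 3 lay amid the genes of unrelated tissues. The highest of those genes read 9.04, above Sst and Tph1, and the next below both. No detection call was used, so how far the readings of these 5 probe sets rise above background is not known.

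**Figure D1:**
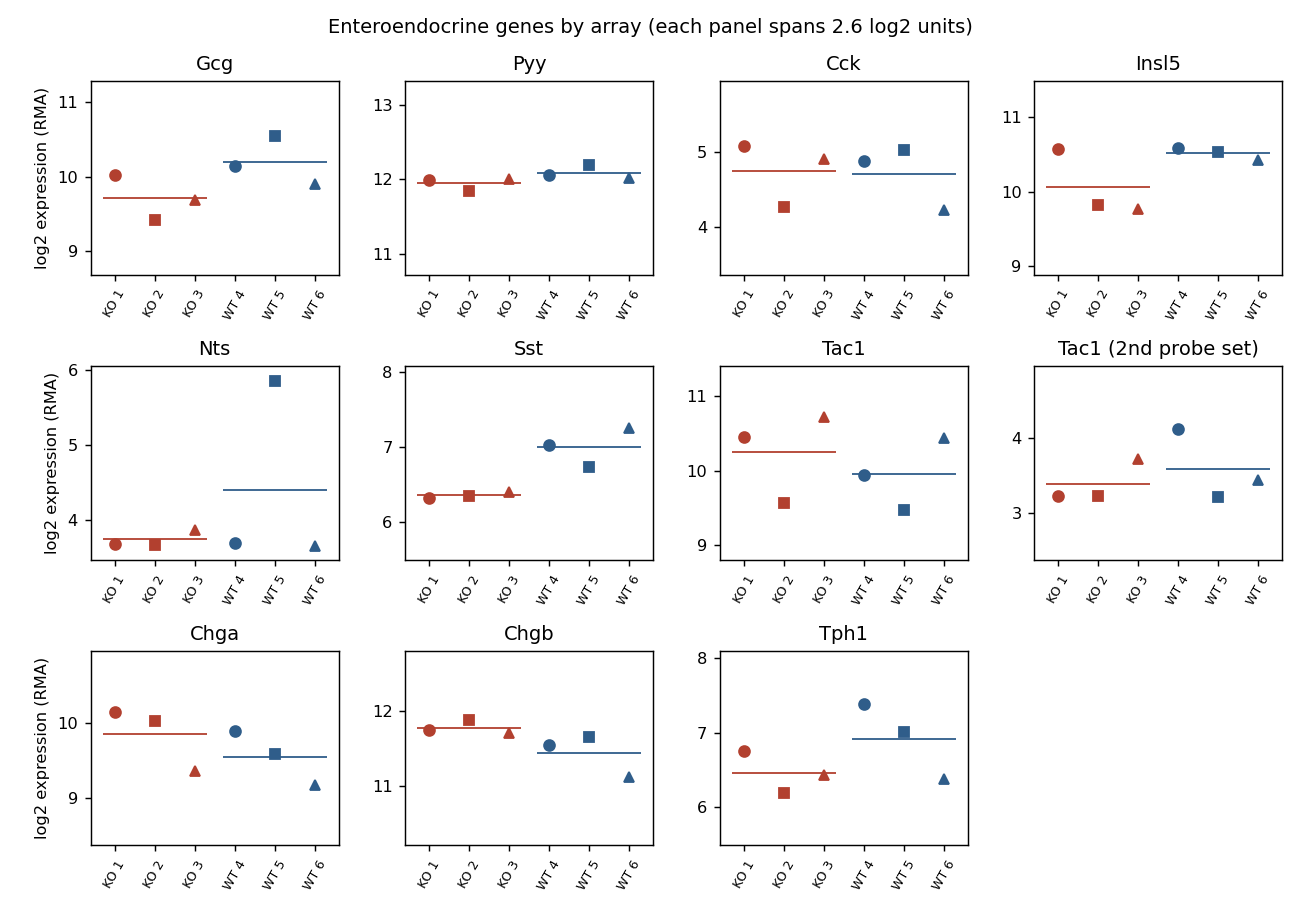
Log2 expression (RMA, vertical axis, each panel spanning 2.6 log2 units) of the 11 member probe sets in the 3 knockout arrays (red, KO 1 to 3) and the 3 wild-type arrays (blue, WT 4 to 6), with a line at each group's mean. Sst, Pyy and Chgb keep the groups apart, and Nts is raised in wild type 5 alone (5.86 against 3.65 to 3.87).

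The regulatory sequence before some of these genes is shown because the knockout removes partners of beta-catenin, which acts on DNA through TCF/LEF factors. Another reason is that Sst and Chgb, whose groups did not overlap, share a well-known element, though Sst read lower and Chgb higher in the knockouts. Pyy, whose groups did not overlap either, has no match to that element in its windows. The RefSeq promoter table of build GRCm38.p6 held 13 windows for all 10 genes, and the 250 bases before each start were searched on both strands for 4 motifs: the cyclic AMP response element TGACGTCA, the TCF/LEF core CTTTGAT, the TATA box TATAAA and the E-box CAGATG, a site type used by NeuroD1. The 4 motifs do not overlap in the stretches printed, and capitals mark the matches in either orientation.

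Sst, chr16:23890874-23890903, minus strand, 30 bases around the element: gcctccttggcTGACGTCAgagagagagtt

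Chgb, chr2:132781392-132781641, plus strand: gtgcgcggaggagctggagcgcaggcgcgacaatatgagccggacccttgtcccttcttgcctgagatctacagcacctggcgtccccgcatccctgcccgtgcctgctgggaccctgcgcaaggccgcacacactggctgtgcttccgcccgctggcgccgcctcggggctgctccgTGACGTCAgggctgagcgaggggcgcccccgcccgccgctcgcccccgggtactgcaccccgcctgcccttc

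Gcg, chr2:62483654-62483903, minus strand: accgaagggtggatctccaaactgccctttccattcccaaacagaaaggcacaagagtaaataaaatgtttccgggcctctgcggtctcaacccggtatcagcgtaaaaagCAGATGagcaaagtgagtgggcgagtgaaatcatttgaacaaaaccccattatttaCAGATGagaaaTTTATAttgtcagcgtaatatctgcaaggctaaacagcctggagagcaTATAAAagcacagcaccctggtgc

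Tph1, chr7:46672538-46672787, minus strand: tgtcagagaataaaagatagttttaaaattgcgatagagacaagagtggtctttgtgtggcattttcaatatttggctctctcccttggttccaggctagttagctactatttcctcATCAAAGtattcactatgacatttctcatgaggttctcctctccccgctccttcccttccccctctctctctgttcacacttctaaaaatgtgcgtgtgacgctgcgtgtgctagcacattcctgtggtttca

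The full cyclic AMP element was found in 2 of the 13 member windows, 48 bases before the start in Sst and 72 before it in Chgb, and in 1.55% of all 32851 windows. Only exact copies were counted, so near copies such as TGACGTAA in the Chga window and TGACATCA in the Nts window were left out. The TCF/LEF core was found in 1 member window, that of Tph1, on the opposite strand and 133 bases before the start (3.21% of all windows). The E-box was found in 4 member windows, of Gcg (where it occurs at 139 and 83 bases before the start), Insl5, Tac1 and Cck (14.4% of all windows), and the TATA letters in 3, of Gcg and of both Insl5 starts (12.4%). These are matches of letters and say nothing of whether a factor binds there.

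No member passed the test between genotypes. A difference is the knockout mean less the wild-type mean in log2 units, given with its standard error (SE) and 95% interval from limma, and a call is an adjusted p under 0.05 over the 45037 probe sets that are not array controls. limma called 0 of the 11 member probe sets and 0 of all probe sets (0%, smallest adjusted p = 0.326). Without adjustment, 0 members were higher and 1 lower, Sst, at a p under 0.05, against 2.29% of all probe sets higher and 1.85% lower. The genotypes were fully separated for 1 higher member, Chgb, and 2 lower ones, Sst and Pyy, against 4.93% and 4.76% of all probe sets. The median difference of the 11 was -0.20, with 4 above and 7 below 0, against 0.0018 over all probe sets. Single arrays moved this median by over 1.5 times: it was -0.089 without wild type 5, -0.12 without knockout 2 and -0.32 without knockout 3. In RNA from a mixed cell pool, fewer cells of a type and less RNA per cell cannot be told apart.

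**Figure D2:**
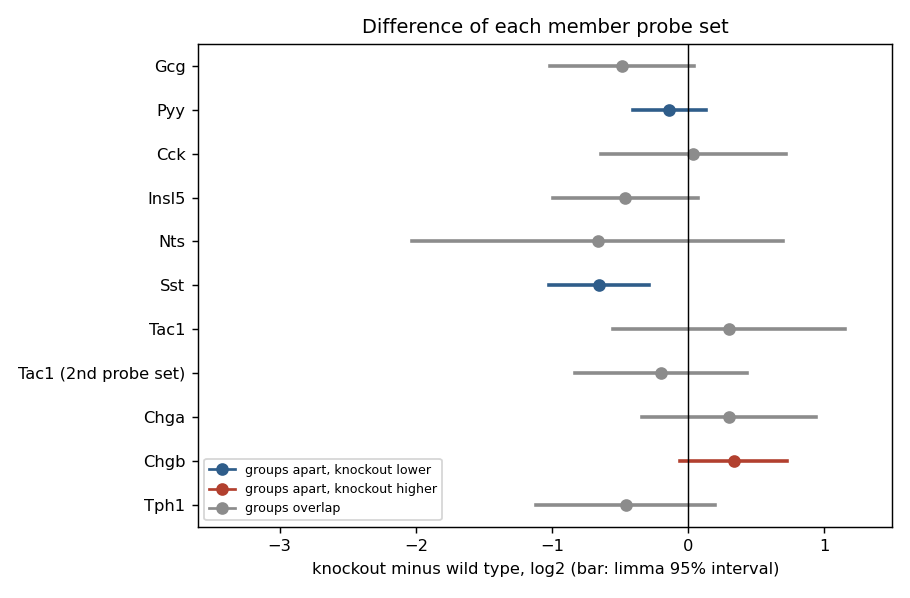
Log2 difference of each member probe set between knockout and wild type (horizontal axis, below 0 where the knockouts are lower), with limma's 95% interval from 3 arrays per genotype, coloured by whether the groups' values overlap. The interval of Sst (-1.02 to -0.29) leaves out 0 before adjustment, and all others include it.

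The L cell hormones read lower in the knockouts, each within the error of the test. Gcg encodes proglucagon, which L cells cut into the glucagon-like peptides. It read 10.03, 9.42 and 9.68 in knockouts 1, 2 and 3 and 10.14, 10.54 and 9.90 in wild types 4, 5 and 6. Knockout 1 lay above wild type 6, so the groups overlapped. The means were 9.71 ± 0.31 (SD, n = 3) and 10.20 ± 0.32 (SD, n = 3), a difference of -0.49 (SE 0.22, 95% interval -1.01 to 0.04, limma adjusted p = 0.991). Wild type 5, the array with the acinar genes, held the highest Gcg value, and without it the difference was -0.31, while without wild type 6 it was -0.63. Pancreatic islets also express Gcg and Sst. Sst was lowest in wild type 5 among the wild types, and the insulin gene Ins2 read 4.99 to 5.25 across all 6 arrays. A list of 10 probe sets for 7 genes of insulin-producing cells was also added after the values were seen. Its median was 3.02 in wild type 5 against 3.06 to 3.17 elsewhere, but most of these probe sets were dim. The brightest, of Iapp, was highest in wild type 5, at 6.81 against 5.95 to 6.51, and 2 of the 10 were highest there. The part of pancreatic RNA in the Gcg difference was not tested.

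Insl5, a relaxin-family peptide of colonic L cells known to raise food intake, was lower in 2 of 3 knockouts. It read 10.57, 9.83 and 9.77 in knockouts 1, 2 and 3 and 10.59, 10.54 and 10.43 in wild types 4, 5 and 6. Knockout 1 sat among the wild types, while knockouts 2 and 3 lay below all of them. The difference was -0.46 (SE 0.22, 95% interval -0.996 to 0.07, limma adjusted p = 0.991), and -0.72 without knockout 1. The knockouts spread with an SD of 0.44 (n = 3) and the wild types with an SD of 0.08 (n = 3).

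Pyy encodes peptide YY, which slows gut transit and curbs appetite, and its range over the 6 arrays, 0.34, was the smallest of the members. It read 11.99, 11.85 and 12.00 in the knockouts and 12.05, 12.18 and 12.02 in wild types 4, 5 and 6. The groups did not overlap, but the lowest wild-type value lay only just above the highest knockout. The difference was -0.14 (SE 0.11, 95% interval -0.41 to 0.13, limma adjusted p = 0.991), a knockout level 0.909 times that of wild type. It was -0.089 without wild type 5 and -0.087 without knockout 2. Like Gcg, it was highest in wild type 5.

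Nts encodes neurotensin, a peptide of N cells and some L cells that is made mostly in the distal small intestine. It read 3.67, 3.67 and 3.87 in the knockouts and 3.69, 5.86 and 3.65 in wild types 4, 5 and 6. A single array was thus high, and the other 5 lay within a narrow band below the median of the genes of unrelated tissues. The difference of -0.66 (SE 0.57, 95% interval -2.03 to 0.70, limma adjusted p = 0.991) came from that array, and without wild type 5 it was 0.07, against -1.02 without wild type 4 and -1.04 without wild type 6. Nts had the widest range of any member's brightest probe set, 2.20. Of 18183 other genes, those whose profiles lay nearest to it over the 6 arrays were Amy1, which encodes an amylase (root mean square difference of centred values 0.15, against 0.80 for a flat profile), Cbln1 (0.16), Crisp3 (0.16), Pdia2 (0.17) and Gp2 (0.20), each of them highest in wild type 5. Amy1, Pdia2 and Gp2 are in the acinar list, but that list was added after the values were seen, so their place in it is no separate check. Amy1 read 5.12 in wild type 5 and 3.17 to 3.37 elsewhere, and Gp2 5.21 against 3.11 to 3.51. These genes were named for their likeness to Nts and do not stand for the whole list. Of its 26 probe sets, 20 were second highest in wild type 6, the array where Nts was lowest.

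Small intestine markers had a list median of 5.63 in wild type 5 and of 5.28 to 5.62 in the other arrays. Fabp6, a bile acid binding protein of the ileum, was lowest in that array, at 10.5 against 10.6 to 11.6. The part of pancreatic or ileal RNA in the Nts reading of wild type 5 was not tested.

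Cck encodes cholecystokinin, the gallbladder and satiety hormone of I cells, which lie mostly in the proximal small intestine. It read 5.08, 4.27 and 4.90 in the knockouts and 4.88, 5.03 and 4.23 in wild types 4, 5 and 6. Knockout 2 and wild type 6 were low and the other 4 arrays alike, so the groups overlapped throughout. The difference was 0.04 (SE 0.29, 95% interval -0.64 to 0.72, limma adjusted p = 0.999), and it took the other sign without knockout 1 (-0.13), knockout 3 (-0.04) or wild type 6 (-0.21). It was 0.28 without knockout 2, 0.12 without wild type 4 and 0.20 without wild type 5.

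Sst encodes somatostatin, which D cells release to restrain other endocrine cells. It read 6.31, 6.35 and 6.40 in knockouts 1, 2 and 3 and 7.03, 6.74 and 7.26 in wild types 4, 5 and 6. The knockouts lay close together and below every wild type. The means were 6.35 ± 0.04 (SD, n = 3) and 7.01 ± 0.26 (SD, n = 3), a difference of -0.66 (SE 0.15, 95% interval -1.02 to -0.29), so that the knockout level was 0.635 times that of wild type. Sst ranked 118th of 45037 probe sets by unadjusted p and did not pass after adjustment (limma adjusted p = 0.991). The difference was -0.53 without wild type 6 and -0.79 without wild type 5, and -0.68 to -0.64 when any other array was left out. Enteric neurons also make somatostatin. Their marker list as a whole had a median difference of -0.04, with 15 probe sets above 0 and 24 below. At an unadjusted p under 0.05, 2 of its probe sets were higher in the knockouts, of the neuronal genes Elavl4 and Prph. The 2 lower ones were both of the cytoskeletal gene Map2, which differed by -1.35, -1.02, -0.83 and -0.27 in its 4 probe sets. The part of neuronal RNA in the Sst difference was not tested.

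Tac1 and Tph1 belong to enterochromaffin cells, and their differences had opposite signs, both within error. Tac1 encodes the precursor of substance P and neurokinin A. Its brighter probe set read 10.46, 9.56 and 10.72 in the knockouts and 9.94, 9.47 and 10.43 in wild types 4, 5 and 6. Each genotype held low and high arrays, and the difference was 0.30 (SE 0.36, 95% interval -0.55 to 1.15, limma adjusted p = 0.991). It was 0.64 without knockout 2, 0.54 without wild type 6 and 0.19 without knockout 1, and without knockout 3 or wild type 5 it was 0.06. The dim Tac1 probe set, 3.21 to 4.13 over the 6 arrays, differed by -0.20 (SE 0.26). It differed by 0.07 without wild type 4, by -0.12 without knockout 1 or 2, by -0.36 without knockout 3 and by -0.39 without wild type 5.

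Tph1 read 6.76, 6.19 and 6.43 in knockouts 1, 2 and 3 and 7.38, 7.0 and 6.38 in wild types 4, 5 and 6. Wild types 4 and 5 lay above all knockouts, while wild type 6 lay below 2 of them. The difference was -0.46 (SE 0.28, 95% interval -1.12 to 0.20, limma adjusted p = 0.991), -0.73 without wild type 6 and -0.23 without wild type 4. The other genes of serotonin handling, 12 genes with 22 probe sets, gave 0 calls and 0 at an unadjusted p under 0.05. In their brightest probe sets, Ddc, which makes serotonin from the product of Tph1, differed by 0.15 (SE 0.16), the granule transporter Slc18a1 by 0.17 (SE 0.25) and the uptake transporter Slc6a4 by 0.20 (SE 0.21).

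The granins read higher in the knockouts, where most of the member hormones read lower, and none of these differences passed after adjustment. Chga read 10.16, 10.03 and 9.36 in the knockouts and 9.90, 9.59 and 9.17 in wild types 4, 5 and 6. Knockout 3 lay below wild types 4 and 5, so the groups overlapped. The difference was 0.30 (SE 0.27, 95% interval -0.34 to 0.94, limma adjusted p = 0.991). Without wild type 6 it was 0.11 and without knockout 1 0.15, while it was 0.54 without knockout 3 and 0.47 without wild type 4. The genes whose centred profiles lay nearest to Chga over the 6 arrays were Tmem223 (root mean square difference 0.076, against 0.36 for a flat profile), Mtus2 (0.091), Klb (0.094), Snhg4 (0.10) and Slc39a5 (0.11). The distance to a typical gene was 0.38, and 6 arrays give such likeness little weight.

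Chgb read 11.74, 11.88 and 11.70 in the knockouts and 11.55, 11.65 and 11.12 in wild types 4, 5 and 6. The groups did not overlap, with knockout 3 just above wild type 5 and wild type 6 well below the rest. The means were 11.77 ± 0.09 (SD, n = 3) and 11.44 ± 0.28 (SD, n = 3), a difference of 0.33 (SE 0.16, 95% interval -0.06 to 0.73, limma adjusted p = 0.991). Without wild type 6 it was 0.17. Wild type 6 was the lowest array for both granins and for the dim Cck and Nts probe sets. It is also the array that stood apart on the leading principal component and had the highest B cell marker level. Whether these are linked was not tested.

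Members were also read relative to Chgb in the same array, a quantity chosen after the values were seen and given no test. Since Chgb was itself higher in every knockout, subtracting it moves any gene towards lower values: 31.9% of all other probe sets then lay lower in every knockout than in any wild type, and 0.115% higher. Of the 10 other member probe sets, 5 were lower in this way (Gcg, Pyy, Insl5, Sst and Tph1) and 0 higher, and Gcg, Insl5 and Tph1 overlap in their own values. Chga minus Chgb, centred on the 6 arrays, was 0.32, 0.06 and -0.43 in knockouts 1, 2 and 3 and 0.25, -0.16 and -0.04 in wild types 4, 5 and 6. The granins thus varied against each other within each genotype, with group means that differed by -0.03.

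**Figure D3:**
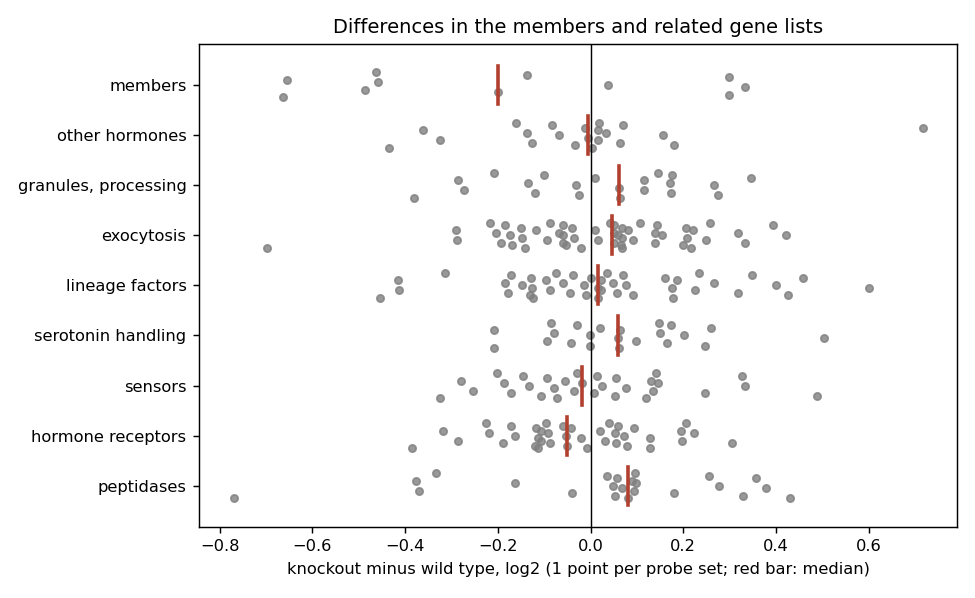
Log2 difference between knockout and wild type (horizontal axis) for every probe set (grey points) of the members and of 8 related gene lists, with the median of each list as a red bar. The medians of the related lists lie between -0.05 and 0.08, and that of the members at -0.20.

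Genes that act with the members gave 0 calls in every list. The list medians below were near 0, and some took the other sign when an array was left out: without wild type 6 they were -0.078 for granule cargo and processing, -0.021 for exocytosis and -0.059 for transcription factors, and without wild type 5 that of the receptors was 0.0091. Among 17 other gut peptides (21 probe sets, median -0.0046), 1 was higher and 1 lower at an unadjusted p under 0.05. The higher was Sct, the secretin precursor of S cells, at 7.41, 7.64 and 7.33 in the knockouts and 6.77, 6.95 and 6.50 in wild types 4, 5 and 6, a difference of 0.72 (SE 0.16, limma adjusted p = 0.991) with groups that did not overlap. The lower was the enkephalin precursor Penk at -0.36 (SE 0.14), a dim probe set whose groups did not overlap either. Gal was also lower without overlap, at -0.16 (SE 0.12). In this list 1 probe set was thus higher and 2 lower without overlap, against 4.93% and 4.76% of all probe sets. Gip, Ghrl and Ppy, the precursors of glucose-dependent insulinotropic peptide, ghrelin and pancreatic polypeptide, differed by -0.0046, 0.18 and 0.07.

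Of 16 genes for granule cargo and prohormone processing (21 probe sets, median 0.06), 1 probe set was higher at an unadjusted p under 0.05 and 0 lower. This was the brighter one of Cpe, the carboxypeptidase that trims cut prohormones, at 8.75, 8.78 and 9.01 in knockouts 1, 2 and 3 and 8.62, 8.55 and 8.33 in wild types 4, 5 and 6. The groups did not overlap, and the difference was 0.35 (SE 0.14, limma adjusted p = 0.991). Its dim probe set differed by -0.03. The convertase Pcsk1, which cuts proglucagon to the glucagon-like peptides, differed by 0.27 (SE 0.31), and the secretogranins Scg2, Scg3 and Scg5 by 0.17, 0.01 and -0.38. The 2 probe sets of this list that were lower without overlap, of the granin-family gene Vgf (-0.27, mean 3.89) and the vesicle protein gene Syp (-0.10, mean 2.25), were dim, and the brighter Syp probe set differed by 0.27. Among 21 genes of regulated exocytosis (52 probe sets, median 0.05) 0 were higher and 1 lower, a probe set of the SNARE regulator Cplx2 at -0.70 (SE 0.24), whose other probe sets differed by -0.20 and -0.06.

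Transcription factors of the lineage were measured for 20 genes (44 probe sets, median 0.02), with 1 probe set higher and 0 lower at an unadjusted p under 0.05. It belonged to Neurog3, the factor that commits progenitors to the endocrine fate, at 3.87, 3.67 and 4.59 in the knockouts and 3.60, 3.49 and 3.24 in wild types 4, 5 and 6. All of these readings were dim, and the difference was 0.60 (SE 0.25, limma adjusted p = 0.991), while the other Neurog3 probe set differed by 0.02. Neurod1, which acts after Neurog3, differed by -0.15 and 0.23 in its 2 probe sets, and Nkx2-2, needed for several endocrine fates, by 0.27 (SE 0.12) with groups that did not overlap.

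Sensors of nutrients and metabolites were measured for 16 genes (31 probe sets, median -0.02), with 1 probe set higher and 1 lower at an unadjusted p under 0.05, those of Olfr78 (0.33, mean 2.51) and of the calcium-sensing receptor Casr (-0.32, mean 3.48). Both are dim, and the other probe sets of Olfr78 differed by -0.11 to -0.02 and that of Casr by 0.01. The short-chain fatty acid receptor Ffar2 differed by 0.49 (SE 0.29) and 0.12 (SE 0.14) in its 2 probe sets. Among 26 receptors of the members' peptides and of serotonin (39 probe sets, median -0.05), 1 was higher and 2 lower, namely the neurotensin-binding sorting receptor Sort1 (0.31, SE 0.13, and 0.19 and 0.20 in its other probe sets), the gastrin and cholecystokinin receptor Cckbr (-0.29, SE 0.11, and 0.05 in its other probe set) and the serotonin channel Htr3a (-0.32, SE 0.12, mean 3.58).

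Peptidases that cut released peptides were measured for 11 genes (23 probe sets, median 0.08), with 1 higher and 1 lower. Dpp4, which inactivates the glucagon-like peptides, differed by 0.43 (SE 0.13) in a probe set of mean 4.81 and by 0.28 (SE 0.18) in its brightest one, while its other probe sets differed by 0.38 and -0.37. The aminopeptidase Anpep differed by -0.77 (SE 0.21). None of these passed after adjustment.

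**Figure D4:**
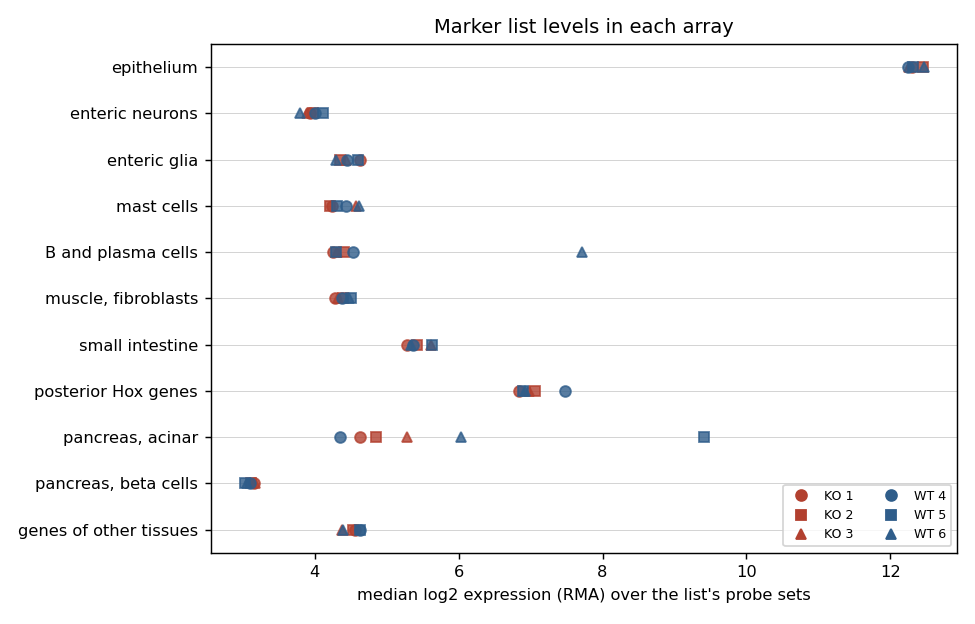
Median log2 expression (RMA, horizontal axis) over the probe sets of 11 marker lists in each of the 6 arrays (red, knockout; blue, wild type). Wild type 6 stands apart in B and plasma cell markers (7.71), wild type 5 in pancreatic acinar genes (9.41), and neuronal and glial markers lie near the genes of other tissues in all arrays.

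Sst, Tac1, Nts, Cck and the granins are also made by enteric neurons, and Tph1 by mast cells, so markers of those cells are given here. The 17 measured neuronal markers (39 probe sets) had list medians of 3.89 to 3.98 for knockout arrays and 3.79 to 4.11 for wild-type arrays, below those of the unrelated-tissue genes (4.38 to 4.62). Of these probe sets 4 had a mean above that of the median probe set. The neuronal RNA-binding protein Elavl4 read 2.21 to 4.26 in all 3 of its probe sets and the neuronal tubulin Tubb3 3.72 to 4.28. In this list 2 probe sets were higher and 2 lower at an unadjusted p under 0.05, of Elavl4 (0.44) and the neuronal filament gene Prph (0.37) and, lower, of Map2 (-1.35, SE 0.25, and -0.83, SE 0.29). The 6 measured glial markers had list medians of 4.35 to 4.62 for knockout and 4.29 to 4.59 for wild-type arrays.

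Mast cell markers, 13 genes with 18 probe sets, had list medians of 4.21 to 4.57 for knockout and 4.30 to 4.61 for wild-type arrays. The granule enzyme Cpa3 read 2.98 to 4.49 in the former and 3.44 to 4.40 in the latter, and Mcpt2, a mucosal mast cell protease, 6.70 to 8.25 and 7.04 to 7.69. The chymase Cma1 was the 1 probe set of the list at an unadjusted p under 0.05, and it was higher in the knockouts (1.47, SE 0.18, limma adjusted p = 0.561). Of the 18 probe sets 4 lay above 0 and 14 below, with a median difference of -0.089. The part of mast cell RNA in the Tph1 difference was not tested.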

How the data were processed

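Expression was measured on Affymetrix mouse genome arrays, 1 per pool of mice, from 30 ng of amplified total RNA per the labels' protocols. The authors deposited log2 values, which they computed with RMA according to the submitters' processing notes (no version given). Scanner files, detection calls and scan dates were not used here, and no coordinates are given for probes. Arrays have no read depth; their number limits the precision. Nothing in the labels separates pools within a genotype by batch, and p-values measure the spread between pools.

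Knockout and wild type were compared with limma 3.58.1 in R 4.3.3 (lmFit, eBayes, two-sided, no covariate) over 45037 probe sets, after 64 controls were left out, with Benjamini-Hochberg adjustment. Of these, 34945 had 1 gene symbol, 932 several and 9160 none in the platform annotation, and only those with 1 are named. The fit was tested on simulated data with planted changes larger than any member difference, so changes of the members' size were not covered. Members and lists were chosen with earlier results of these data known; of 283 genes in the other lists 255 were matched. The rule named all members, the targeted genes, up to 4 genes of each list by unadjusted p, set defining genes and the 5 nearest profiles; other genes named, the pancreatic lists and the motifs were chosen after values or matches were seen. Alternatives covered genes instead of probe sets, other probe set filters, cyclic loess, a variance trend with robust estimation, array weights and leaving out each array.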

Additional observations from a re-analysis of the deposited data

How the results depend on the processing

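The 11 member probe sets had 0 calls in every alternative run, and over all probe sets only the fit without wild type 6 made any, 3. The median difference of the members ran from -0.32 to -0.089. Members at an unadjusted p under 0.05, 1 in the fit as reported, numbered 2 with cyclic loess (Sst and Gcg, against 3.89% of all probe sets), 2 with a variance trend and robust estimation (Sst and Chgb, 4.07%), 4 with array weights (Sst, Gcg, Insl5 and Tph1, 5.40%), and 1 to 3 when an array was left out (3.26% to 5.76%); Sst was among them every time. Members whose groups did not overlap, 3 as reported, numbered 3 to 5 when an array was left out, where smaller groups overlap less often (17.6% to 22.0% of all probe sets, against 9.69%). Of the member differences only the dim ones changed sign. Cck was -0.051 with array weights and ran from -0.21 to 0.28 when an array was left out. Nts ran from -1.04 to 0.066, being above 0 only without wild type 5, and the dim Tac1 probe set from -0.39 to 0.067, being above 0 only without wild type 4. The cause of these shifts was not tested beyond the array left out. With 3 arrays per genotype, the 95% intervals of the members ran from that of Pyy, the narrowest (-0.41 to 0.13), to that of Nts, the widest (-2.03 to 0.70).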

Other observations

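Smooth muscle and connective tissue markers, of which 11 genes with 22 probe sets were measured, had a median difference of -0.17, with 17 probe sets below 0 and 5 above, 3 lower at an unadjusted p under 0.05 and 0 called. That median was -0.49 when each gene took its brightest probe set, -0.40 with gene means and -0.75 over brighter probe sets. Both lower probe sets of Col1a2, a chain of type I collagen, had groups that did not overlap. The dimmer one read 3.17, 3.05 and 3.15 in knockouts 1, 2 and 3 and 3.56, 3.72 and 3.55 in wild types 4, 5 and 6, a difference of -0.49 (SE 0.11). All 18 probe sets of the B and plasma cell list lay below 0, with a median of -0.92, and of -0.14 without wild type 6. The small intestine list had a median difference of -0.072, with 8 probe sets above 0 and 13 below, and of 0.0015 without wild type 5. Within it Apob, which encodes the main apolipoprotein of chylomicrons, differed by 0.74 (SE 0.19) and 0.70 (SE 0.20) in 2 probe sets. Each had groups that did not overlap, and neither was called.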
